A study of Mus musculus with 27 samples.

Results

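Bryostatin was added to glia that also received interleukin 4 (IL-4), and these cultures were compared with glia that received IL-4 without it. The comparison used 6 of the 27 libraries of the series, 3 labelled IL4+Bryostatin and 3 labelled IL4, and the libraries were chosen by their labels alone. The cells were mixed glia from the cortex of C57BL/6 mouse pups 3 to 6 days old, grown for 14 days in vitro and treated for 24 h. IL4+Bryostatin glia received 50 nM bryostatin and 20 ng/mL IL-4, and IL4 glia received 20 ng/mL IL-4. Both groups belong to experiment 2, which also holds 3 libraries of glia given 50 nM bryostatin without IL-4 and 3 libraries of untreated glia. In experiment 1, 50 nM bryostatin was added to glia given 100 ng/mL lipopolysaccharide (LPS), or LPS with 20 ng/mL interferon gamma (IFN-gamma). These groups held 3 libraries each and were also treated for 24 h. All groups were of the same strain. The labels do not say whether the 3 replicates of a group came from separate cultures or litters, so p-values measure the spread between libraries, which may be technical.

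Bryostatin-1 is a macrocyclic lactone from a marine bryozoan symbiont. It docks on the C1 domains of PKC, the protein kinase C family, in the place of the lipid second messenger diacylglycerol, and first activates the conventional and other diacylglycerol-responsive isoforms before they are degraded. IL-4 acts through its receptor, Janus kinases and the transcription factor STAT6, and drives macrophages and microglia into the state called alternative activation, marked by arginase 1 and mannose receptor. Mixed glial cultures hold mainly astrocytes, with microglia growing on them and cells of the oligodendrocyte lineage.

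Each of the 6 libraries held between 17356986 and 28687281 counts over 54532 annotated genes, and 3 counts corresponded to between 0.105 and 0.173 CPM (counts scaled to the size of the library). On the log2 scale, Pearson's r was 0.9916 to 0.9961 between the IL4+Bryostatin libraries and 0.9934 to 0.9959 between the IL4 libraries. Between the groups it was 0.9807 to 0.9892. The first principal component, with 58.4% of the variance, separated the groups, and no replicate pair held identical counts. In experiment 2, 2 libraries outside this comparison stood apart from their groups, untreated replicate 1 and bryostatin replicate 2. The defining markers of astrocytes (Gfap, Aqp4) and of myeloid cells (Itgam, Tyrobp, C1qa) were present in all 6 libraries. The oligodendrocyte lineage factor Sox10 was at 0.482 CPM or less and the myelin gene Mog was at 0 counts in all 6, and 0 of 21 genes of lymphocytes and granulocytes were high enough to test. In these bulk samples, more cells of a type and more RNA per cell cannot be told apart.

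With bryostatin, chemokines that attract monocytes, the matrix proteases Mmp3 and Mmp13, osteopontin, lectins of alternative activation and a cholesterol hydroxylase were higher, and genes of astrocytes and of cholesterol synthesis were lower. Of 15091 genes tested with edgeR's quasi-likelihood test and Benjamini-Hochberg adjustment, 2703 (17.9%) were called at an adjusted p below 0.05. These were 1418 higher (9.4%) and 1285 lower (8.52%) in IL4+Bryostatin glia, and over all genes tested the median log2 fold change was -0.0177. The shares of 9.4% and 8.52% are the background for the counts of called members in the gene lists below. A change of over 2-fold was found for 212 of the higher genes and for 181 of the lower genes. The 3 libraries of one group did not overlap those of the other for 5633 genes (37.3%), 20.5% of all tested genes lying above and 16.8% below. The number of calls differed with the libraries in the fit. It was 644 (422 higher, 222 lower) when all 12 libraries of experiment 2 entered the fit, 1512 without IL4+Bryostatin replicate 3 and 1438 without IL4 replicate 2. Without IL4 replicate 1, 891 genes were called higher. None of the called genes named below changed its direction under these settings.

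By size, the 12 largest changes in each direction were taken from called protein-coding genes that averaged 5 CPM or more in the group with the higher level and did not overlap between groups. The higher ones were Ccl12, Ccl7, Nxpe5, Ccl2, Ch25h, Mmp3, Spp1, Mgl2, Clec10a, Ccl4, Mmp13 and Alox15, with log2 fold changes from 2.35 to 3.72. Of the lower ones, 11 are named, which were Myoc, Cxcl10, Gjb2, Enpp2, Col11a2, Cmtm5, Adra2a, Fam216b, Aldh1a7, Cnmd and Zcchc12, with log2 fold changes from -2.78 to -1.56. With 12 libraries in the fit, Gjb2 (adjusted p = 0.128), Col11a2 (adjusted p = 0.161), Cmtm5 (adjusted p = 0.0968), Fam216b (adjusted p = 0.256) and Cnmd (adjusted p = 0.116) were not called. Gjb2 also lost its call without IL4+Bryostatin replicate 1 (adjusted p = 0.103), replicate 2 (adjusted p = 0.108) or replicate 3 (adjusted p = 0.0538). The other 19 kept their call under each of the 13 alternatives tried.

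**Figure D1:**
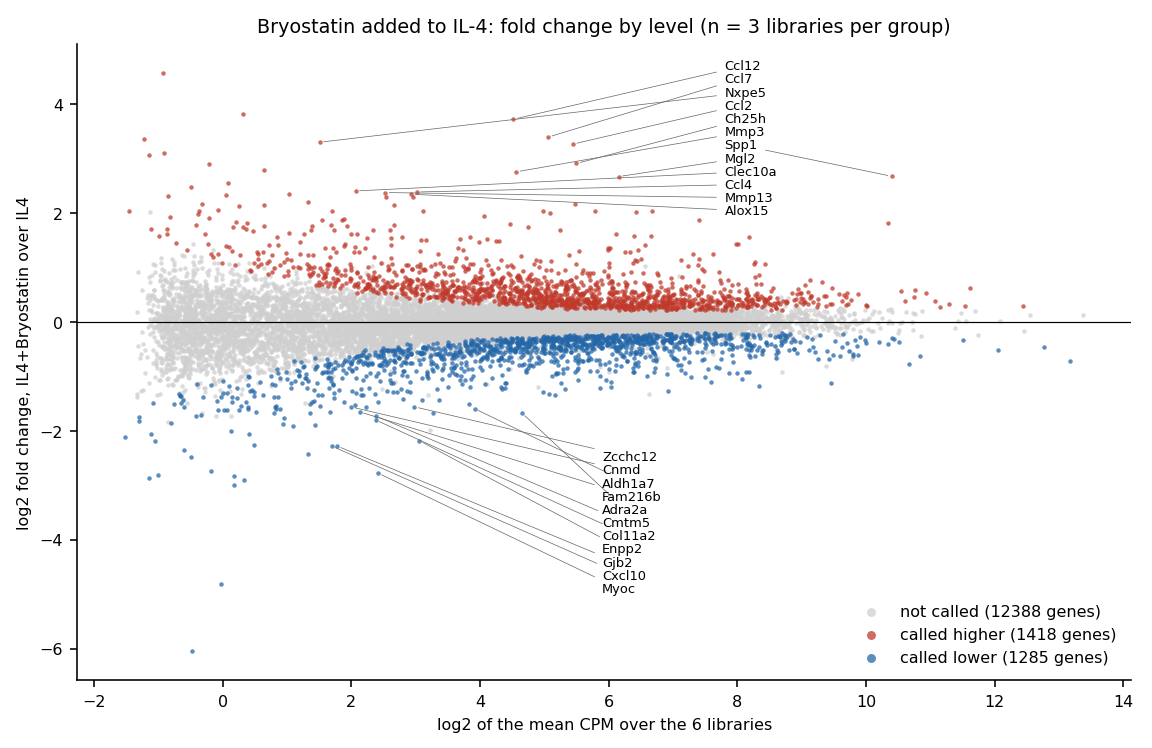
Each point is 1 of the 15091 tested genes, with the log2 of its mean CPM over the 6 libraries on the x axis and its log2 fold change, IL4+Bryostatin over IL4, on the y axis. Red points are the 1418 genes called higher, blue points the 1285 called lower and grey points the genes not called, and the 23 labelled genes are those named by size. Spp1 combines a high level with a log2 fold change of 2.67.

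Of 27 genes of alternative activation tested, 13 were called higher with bryostatin than with IL-4 alone, beside 9.4% of all genes tested. Arg1 (arginase 1, which turns arginine into ornithine and urea, chr10:24915221-24927484 on mm10) stood at 1846, 2134 and 2124 CPM in the IL4+Bryostatin libraries, against 493, 562 and 657 CPM in the IL4 libraries. Its log2 fold change was 1.81 ± 0.11, adjusted p = 4.54e-06, and the groups did not overlap. Mgl2, a galactose-type lectin of alternatively activated macrophages, was at 107, 140.0 and 123 CPM in the IL4+Bryostatin libraries, against 15.3, 18.8 and 23.3 CPM in the IL4 libraries. The neighbouring lectin Clec10a was at 4.99, 9.11 and 7.14 CPM in the IL4+Bryostatin libraries, against 1.06, 0.983 and 1.89 CPM in the IL4 libraries. Both lectins were well above every IL4 library, with log2 fold changes of 2.67 ± 0.15, adjusted p = 9.83e-06 for Mgl2 and 2.40 ± 0.30, adjusted p = 0.000387 for Clec10a. They are close paralogs, so how the authors' counting divided reads between them is uncertain. Mrc1, the mannose receptor (CD206), had 309, 363 and 461 CPM in the IL4+Bryostatin libraries, against 100.4, 145 and 169 CPM in the IL4 libraries. Its log2 fold change was 1.43 ± 0.22, adjusted p = 0.00532, and it was not called without IL4+Bryostatin replicate 2 (adjusted p = 0.0727). The macrophage elastase Mmp12 had 154, 150.5 and 188 CPM in the IL4+Bryostatin libraries, against 28.8, 39 and 50.6 CPM in the IL4 libraries, each value with bryostatin lying above all 3 values without it (2.04 ± 0.19, adjusted p = 0.000337).

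Other genes of the same programme were not called or lost their call in some fits. Retnla, which encodes the secreted protein FIZZ1, was at 31.5, 64.8 and 37.9 CPM in the IL4+Bryostatin libraries, against 54.2, 80.4 and 115 CPM in the IL4 libraries. The chitinase-like gene Chil3 (Ym1) was at 25.4, 41.8 and 31.9 CPM in the IL4+Bryostatin libraries, against 7.57, 21.5 and 30.8 CPM in the IL4 libraries. In both the groups overlapped, and neither was called, at -0.93 ± 0.39, adjusted p = 0.184 for Retnla and 0.71 ± 0.52, adjusted p = 0.425 for Chil3. The chemokine Ccl24 (eotaxin-2) stood at 21.3, 31.2 and 34.5 CPM in the IL4+Bryostatin libraries, against 8.97, 14.2 and 19 CPM in the IL4 libraries, which did not overlap. Its call (1.02 ± 0.28, adjusted p = 0.0471) was lost with 12 libraries in the fit (adjusted p = 0.0966), without IL4+Bryostatin replicate 2 (adjusted p = 0.219) or 3 (adjusted p = 0.129), and without IL4 replicate 2 (adjusted p = 0.0744). Igf1, a growth factor made by microglia, differed by 0.10 ± 0.13, adjusted p = 0.655 and was not called. In this list, 1 gene was called lower and 13 were not called, with a median log2 fold change of 0.42. The gene called lower was Pdcd1lg2, the ligand PD-L2 (-1.28 ± 0.40, adjusted p = 0.0466), which is named here after its value was seen. Without IL4 replicate 2 or 3, or with 12 libraries in the fit, 0 genes of the list were called lower, and the number was 2 without IL4+Bryostatin replicate 3 or IL4 replicate 1. With 12 libraries in the fit 8 members were called higher, and Cdh1 (E-cadherin, 1.14 ± 0.12, adjusted p = 0.000133) was among those lost (adjusted p = 0.332).

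**Figure D2:**
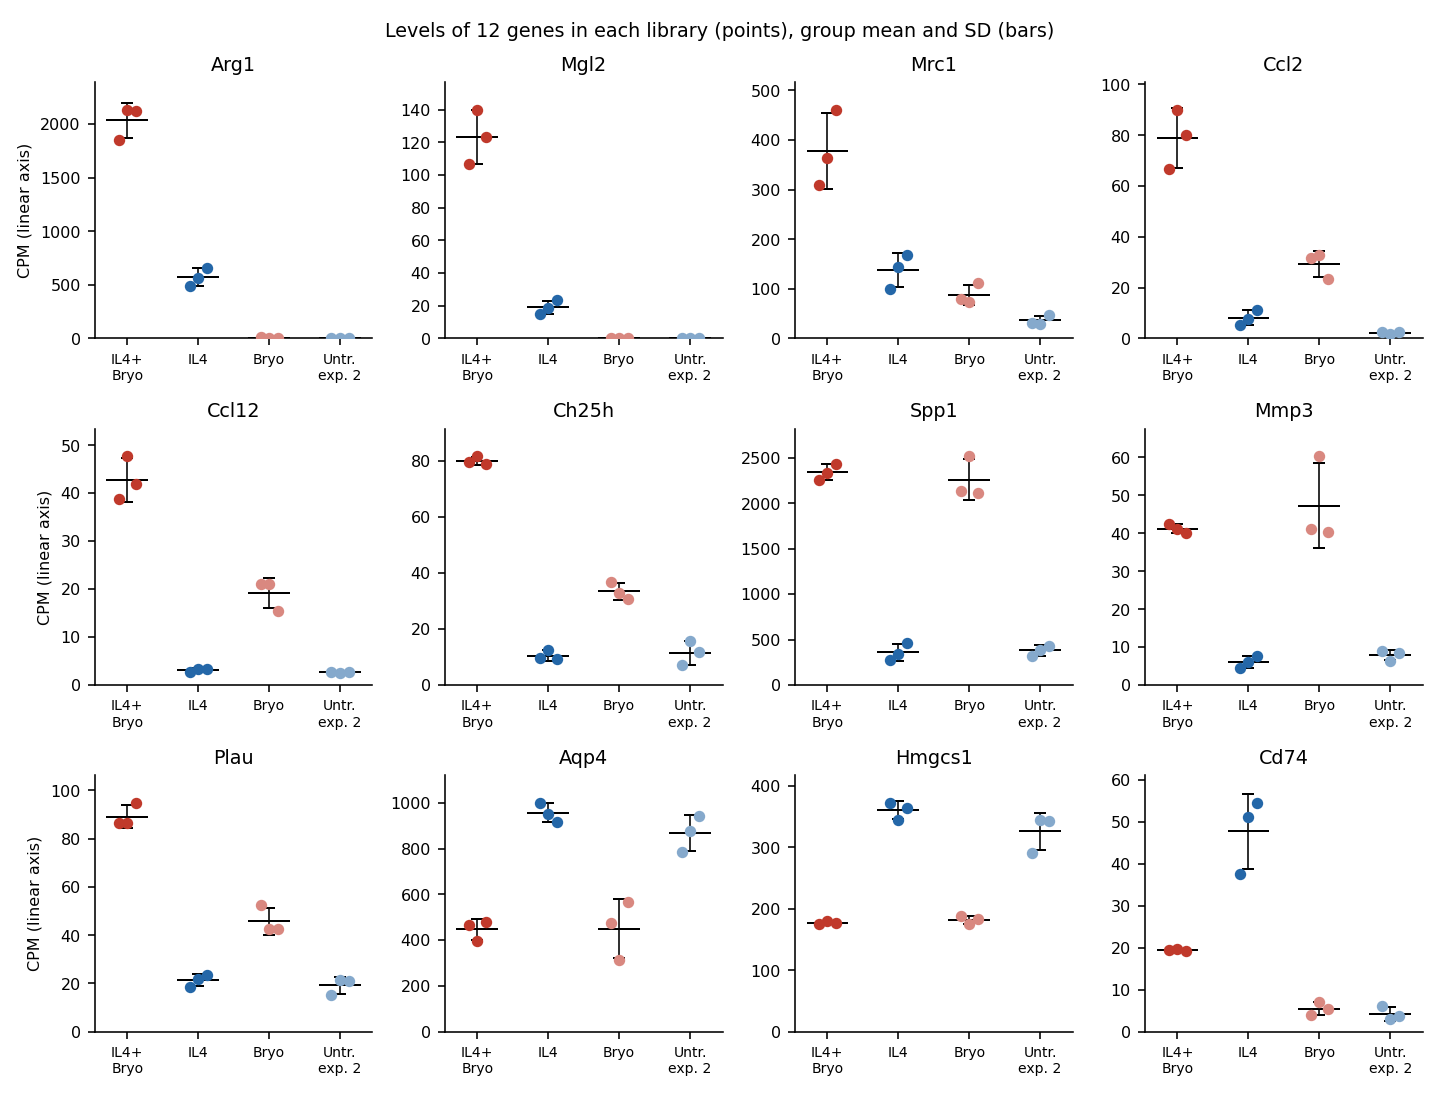
CPM on linear axes for 12 genes in the 3 libraries (points) of IL4+Bryostatin, IL4, Bryostatin and untreated glia of experiment 2, with bars for the group mean and its SD. The IL4+Bryostatin points lie below the IL4 points for Aqp4, Hmgcs1 and Cd74 and above them for the other genes, and Arg1 and Mgl2 are near 0 in untreated glia.

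Some parts of the IL-4 receptor pathway were themselves higher. Il4ra, the receptor chain that binds IL-4, was at 59.5, 66.9 and 74 CPM in the IL4+Bryostatin libraries, against 31.6, 38.6 and 39.2 CPM in the IL4 libraries, a log2 fold change of 0.85 ± 0.11, adjusted p = 0.000427. Socs3, a feedback inhibitor of cytokine receptors, was at 63.9, 79 and 78.5 CPM in the IL4+Bryostatin libraries, against 36.6, 45.6 and 52.4 CPM in the IL4 libraries. Neither gene overlapped between groups, and the change of Socs3 was 0.69 ± 0.13, adjusted p = 0.00512. Stat6, the transcription factor downstream of the receptor, had 58.2, 58.8 and 66.6 CPM in the IL4+Bryostatin libraries, against 41.3, 47.7 and 51 CPM in the IL4 libraries. Its smaller difference (0.37 ± 0.10, adjusted p = 0.0218) lost its call with 12 libraries in the fit (adjusted p = 0.102), without IL4+Bryostatin replicate 3 (adjusted p = 0.105), and without IL4 replicate 1 (adjusted p = 0.0829) or 2 (adjusted p = 0.0631). In the list for this pathway, of 14 tested members, 4 were called higher and 0 lower, beside 9.4% and 8.52% of all genes tested. The other 10 were not called. The fourth gene called was Jak3 (0.45 ± 0.10, adjusted p = 0.0116), the kinase that pairs with the common gamma chain, and 2 of the 4 were called with 12 libraries in the fit.

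Chemokine genes were among the largest increases named by size. Ccl12 (MCP-5, chr11:82101845-82103400) was at 38.7, 47.7 and 41.8 CPM in the IL4+Bryostatin libraries, against 2.75, 3.36 and 3.44 CPM in the IL4 libraries, a log2 fold change of 3.72 ± 0.13, adjusted p = 1.07e-07. Ccl7 (MCP-3) was at 49.1, 74.1 and 59.6 CPM in the IL4+Bryostatin libraries, against 3.57, 5.48 and 8.2 CPM in the IL4 libraries. Ccl2 (MCP-1, chr11:82035571-82037453) was at 66.8, 90.1 and 80.1 CPM in the IL4+Bryostatin libraries, against 5.4, 7.76 and 11.2 CPM in the IL4 libraries. These 3 ligands of the monocyte receptor CCR2 were low in every IL4 library and did not overlap between groups, with changes of 3.39 ± 0.28, adjusted p = 0.000296 for Ccl7 and 3.27 ± 0.23, adjusted p = 9.58e-05 for Ccl2. Ccl3 (MIP-1 alpha), a ligand of the receptor CCR1, was at 8.77, 9.5 and 10.9 CPM in the IL4+Bryostatin libraries, against 1.59, 1.76 and 2.52 CPM in the IL4 libraries. Ccl4 (MIP-1 beta), a close relative of Ccl3, was at 12.9, 15.4 and 12.7 CPM in the IL4+Bryostatin libraries, against 2.51, 2.54 and 2.64 CPM in the IL4 libraries. The log2 fold changes were 2.29 ± 0.19, adjusted p = 5.3e-05 for Ccl3 and 2.39 ± 0.15, adjusted p = 5.26e-06 for Ccl4, and the 3 IL4 libraries were nearly equal in Ccl4. The membrane-bound chemokine Cx3cl1 (fractalkine) rose by 0.75 ± 0.09, adjusted p = 0.000229.

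Cxcl10, a ligand of CXCR3 on T cells that is typical of interferon responses, went the other way. It stood at 0.672, 1.24 and 1.54 CPM in the IL4+Bryostatin libraries, against 4.34, 6.42 and 5.22 CPM in the IL4 libraries, a log2 fold change of -2.28 ± 0.29, adjusted p = 0.000438. Of 14 chemokine genes tested, 9 were called higher and 1 was called lower, beside 9.4% and 8.52% of all genes tested. The other genes called higher were Ccl6, Ccl9 and Ccl24, and 12 genes of the list, among them Cxcl1, Cxcl2 and Ccl8, were too low to test. Ccl6 (2.16 ± 0.28) and Ccl9 (1.28 ± 0.25) are named after their values were seen. Mouse chemokine genes of this family are close in sequence, so the division of reads among them is uncertain.

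Classical inflammatory cytokines did not move together. Tnf was at 0.813, 1.24 and 1.28 CPM in the IL4+Bryostatin libraries, against 0.579, 1.35 and 1.03 CPM in the IL4 libraries, and Il1b at 0.531, 0.731 and 0.426 CPM in the IL4+Bryostatin libraries, against 0.53, 1.19 and 1.26 CPM in the IL4 libraries. Both overlapped between groups and neither was called (0.13 ± 0.37, adjusted p = 0.858 for Tnf, -0.84 ± 0.42, adjusted p = 0.199 for Il1b), while Nos2 had 0 counts in all 6 libraries and Il6 was too low to test. Acod1, the itaconate-producing enzyme of inflamed macrophages, was at 0.0354, 0.169 and 0 CPM in the IL4+Bryostatin libraries, against 0.579, 3.1 and 2.01 CPM in the IL4 libraries. These levels were close to the limit of detection with bryostatin. Lcn2 (lipocalin 2, an acute phase protein) was at 44.4, 65.5 and 64.3 CPM in the IL4+Bryostatin libraries, against 9.69, 19 and 24.6 CPM in the IL4 libraries. Its call (1.69 ± 0.35, adjusted p = 0.0243) was lost without IL4+Bryostatin replicate 1 (adjusted p = 0.0647), 2 (adjusted p = 0.122) or 3 (adjusted p = 0.0905). In this list, of 13 tested members, 3 were called higher and 3 lower, beside 9.4% and 8.52% of all genes tested. The other 7 were not called. With 12 libraries in the fit the numbers were 1 higher and 1 lower. The number called higher was 1 without IL4+Bryostatin replicate 1, 0 without replicate 2 and 1 without replicate 3.

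Proteases that act on the extracellular matrix changed in both directions, and the largest of these changes were increases. Mmp3 (stromelysin 1) was at 42.3, 41.2 and 40.1 CPM in the IL4+Bryostatin libraries, against 4.39, 6.16 and 7.57 CPM in the IL4 libraries. Mmp13 (collagenase 3) was at 9.9, 7.09 and 12.1 CPM in the IL4+Bryostatin libraries, against 1.45, 1.81 and 2.29 CPM in the IL4 libraries. In both genes every library with bryostatin lay far above every library without it, and the log2 fold changes were 2.76 ± 0.15, adjusted p = 2.91e-06 for Mmp3 and 2.38 ± 0.24, adjusted p = 0.000115 for Mmp13. Plau, the urokinase that turns plasminogen into plasmin, was at 86.3, 86.4 and 94.9 CPM in the IL4+Bryostatin libraries, against 18.6, 21.9 and 23.6 CPM in the IL4 libraries. Its receptor Plaur was at 35.5, 33.5 and 33.8 CPM in the IL4+Bryostatin libraries, against 6.94, 9.37 and 13 CPM in the IL4 libraries. The protease and its receptor both rose, by 2.04 ± 0.10, adjusted p = 1.12e-06 for Plau and 1.80 ± 0.18, adjusted p = 0.000153 for Plaur on the log2 scale. Plat, the other plasminogen activator (tPA), fell to 50.7, 48.3 and 47.7 CPM in the IL4+Bryostatin libraries, against 76.1, 88.1 and 76.1 CPM in the IL4 libraries (-0.74 ± 0.08, adjusted p = 0.000207).

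In the plasminogen activator list, of 10 tested members, 5 were called higher, 1 was called lower and 4 were not called, with 2 higher when 12 libraries were fitted and 3 without IL4+Bryostatin replicate 3, IL4 replicate 1 or IL4 replicate 2. Among metalloproteinases and their tissue inhibitors, of 22 tested members, 5 were called higher and 5 lower, beside 9.4% and 8.52% of all genes tested. The other 12 were not called. The higher members were Mmp3, Mmp13, Mmp12, Mmp10 and Mmp11, and the lower ones were Adamts9, Mmp15, Mmp16, Mmp17 and the inhibitor Timp2. All 5 of the higher members and 0 of the lower ones were called with 12 libraries in the fit, and 3 were called lower without IL4+Bryostatin replicate 3 or without IL4 replicate 2. The secreted adhesive protein osteopontin, Spp1, is bound by integrins and cut by Mmp3. It was at 2256, 2334 and 2433 CPM in the IL4+Bryostatin libraries, against 276, 346 and 459.7 CPM in the IL4 libraries, a log2 fold change of 2.67 ± 0.17, adjusted p = 4.22e-05.

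The 250 bases upstream of the transcription start are shown for 3 of these genes that rose, and for Cxcl10 and the connexin gene Gja1, which fell, because each window holds the AP-1 motif (TGACTCA or its reverse complement TGAGTCA), the binding sequence of factors that PKC activators are known to induce. Sequences are from RefSeq's GRCm38.p6 annotation, written 5′ to 3′ on the gene's own strand, and capitals mark the motif.
Mmp3: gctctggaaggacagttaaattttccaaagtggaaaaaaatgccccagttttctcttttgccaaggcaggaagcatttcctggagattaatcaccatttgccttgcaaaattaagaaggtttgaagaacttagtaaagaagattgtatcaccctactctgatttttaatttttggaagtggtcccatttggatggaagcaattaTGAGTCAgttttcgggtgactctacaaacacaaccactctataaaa
Mmp13: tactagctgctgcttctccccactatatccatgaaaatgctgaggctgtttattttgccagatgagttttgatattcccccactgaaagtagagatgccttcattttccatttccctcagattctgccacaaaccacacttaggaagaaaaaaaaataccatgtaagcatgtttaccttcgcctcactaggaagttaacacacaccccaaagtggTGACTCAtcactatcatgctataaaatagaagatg
Plaur: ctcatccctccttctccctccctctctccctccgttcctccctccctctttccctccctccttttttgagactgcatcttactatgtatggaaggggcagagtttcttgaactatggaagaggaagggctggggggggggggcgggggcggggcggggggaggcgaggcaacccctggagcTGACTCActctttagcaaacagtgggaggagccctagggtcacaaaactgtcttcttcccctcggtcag
Cxcl10: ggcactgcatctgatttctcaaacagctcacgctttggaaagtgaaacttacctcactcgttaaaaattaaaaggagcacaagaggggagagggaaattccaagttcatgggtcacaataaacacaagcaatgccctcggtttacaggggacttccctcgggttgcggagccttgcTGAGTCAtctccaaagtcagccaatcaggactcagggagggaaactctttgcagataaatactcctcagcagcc
Gja1: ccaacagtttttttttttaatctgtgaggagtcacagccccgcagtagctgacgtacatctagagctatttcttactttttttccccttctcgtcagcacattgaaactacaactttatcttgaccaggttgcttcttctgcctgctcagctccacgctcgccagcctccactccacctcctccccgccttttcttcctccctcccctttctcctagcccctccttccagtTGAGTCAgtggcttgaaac
The windows lie at chr9:7445572-7445821 (plus strand), chr9:7272264-7272513 (plus strand), chr7:24462233-24462482 (plus strand), chr5:92348890-92349139 (minus strand) and chr10:56377050-56377299 (plus strand), in that order. The motif starts at position -46 from the transcription start in Mmp3, -35 in Mmp13, -69 in Plaur, -74 in Cxcl10 and -19 in Gja1. On both strands, 403 (3.58%) of the 11247 tested genes with a window of 250 bases before to 50 bases after the start held the motif. Of the genes named by the rule and called, it was held by 6 of the 73 windows of those that rose and 5 of the 52 windows of those that fell. These genes were picked by size, by list or in a fixed set, so their counts cannot be set against the share over all genes. Because 11247 of 15091 tested genes could be matched to a window, less than 80%, the shares among higher and lower genes were not compared. A match is a description of these letters and not a site of binding.

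Genes of microglia and other myeloid cells rose unevenly. Itgam (CD11b, a complement receptor chain) was at 92.3, 91.6 and 97 CPM in the IL4+Bryostatin libraries, against 33.6, 35 and 38.6 CPM in the IL4 libraries. Fcgr3, a receptor for immunoglobulin G, was at 236, 286 and 313 CPM in the IL4+Bryostatin libraries, against 92.8, 121 and 133 CPM in the IL4 libraries. Msr1, a scavenger receptor, was at 272, 231 and 298 CPM in the IL4+Bryostatin libraries, against 59.5, 70.1 and 86.2 CPM in the IL4 libraries. The 3 surface receptors did not overlap between groups, with log2 fold changes of 1.37 ± 0.08, adjusted p = 3.72e-06, 1.24 ± 0.14, adjusted p = 0.000427 and 1.87 ± 0.14, adjusted p = 5.64e-05 in that order. Other genes of the same cells differed less. Csf1r, the receptor on which microglia depend for survival, was at 477, 509 and 599.9 CPM in the IL4+Bryostatin libraries, against 329.8, 457 and 482 CPM in the IL4 libraries. C1qa, a complement subunit, was at 440.2, 588 and 592 CPM in the IL4+Bryostatin libraries, against 357, 454 and 507 CPM in the IL4 libraries. Aif1 (IBA1) was at 12.9, 14.2 and 16.2 CPM in the IL4+Bryostatin libraries, against 13.8, 16.6 and 18.9 CPM in the IL4 libraries. None of these 3 was called, at 0.30 ± 0.14, 0.27 ± 0.15 and -0.21 ± 0.14, and they are named here after their values were seen. Of 20 pan-myeloid genes tested, 14 were called higher and 0 lower, with a median of 0.55. With 12 libraries in the fit 7 were called higher, without IL4+Bryostatin replicate 2 9, and without replicate 3 8.

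The summed level of the 20 pan-myeloid genes was 5589, 6717 and 7084 CPM in the IL4+Bryostatin libraries, against 3584, 4665 and 5232 CPM in the IL4 libraries. This sum moved with the chemokine, lectin, protease and lysosomal genes above and below, and its part in those results was not tested.

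**Figure D3:**
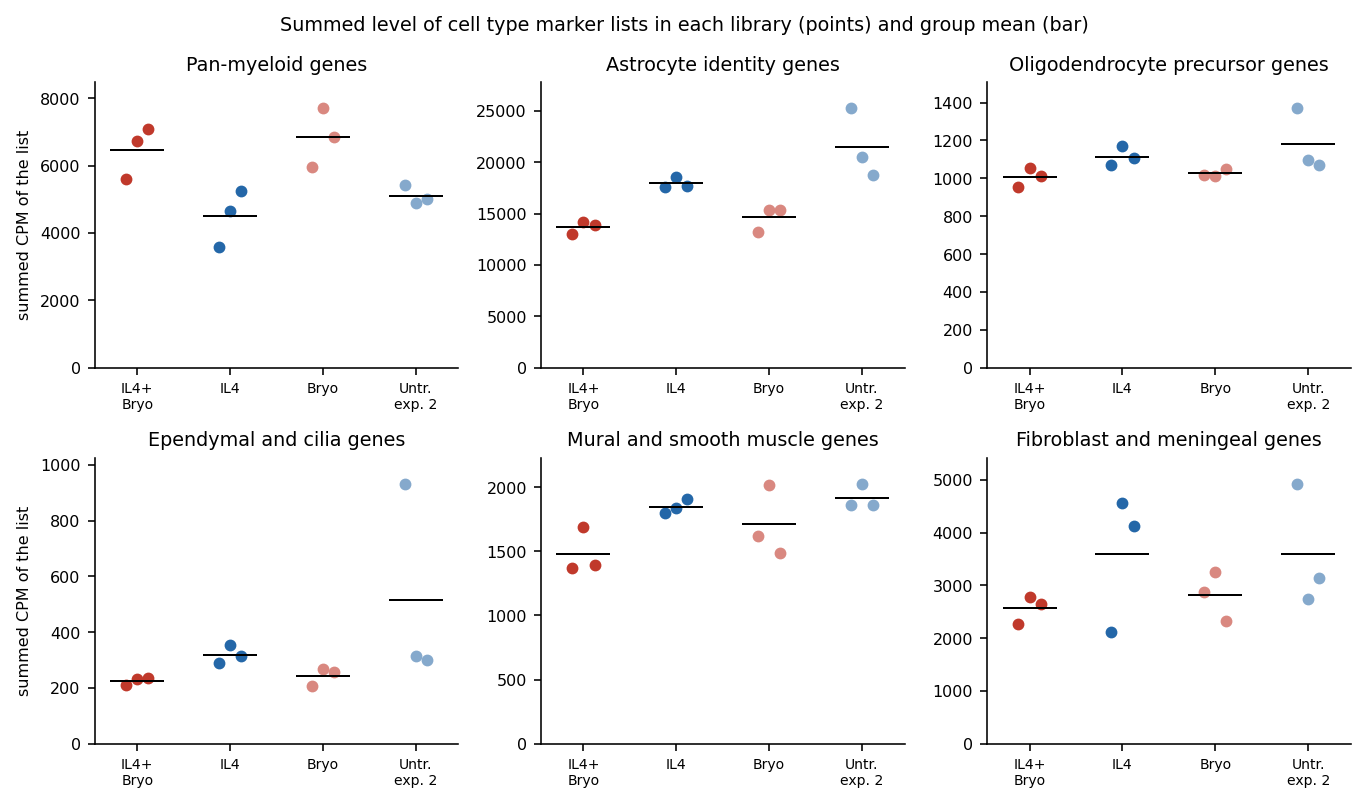
Summed CPM of 6 lists of cell type markers in each library (points) of IL4+Bryostatin, IL4, Bryostatin and untreated glia of experiment 2, with a bar at the group mean. Pan-myeloid sums lie higher and astrocyte sums lower in IL4+Bryostatin than in IL4 libraries, and 1 untreated library stands apart in the oligodendrocyte precursor and ependymal lists.

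Genes of resting, homeostatic microglia split. P2ry13, a nucleotide receptor, was at 11.1, 9.39 and 12.4 CPM in the IL4+Bryostatin libraries, against 4.82, 4.92 and 6.31 CPM in the IL4 libraries. Gpr34, a lysophosphatidylserine receptor, was at 7.5, 7.54 and 10.3 CPM in the IL4+Bryostatin libraries, against 3.66, 3.41 and 4.87 CPM in the IL4 libraries. Cx3cr1, the fractalkine receptor, was at 54.3, 59.1 and 63.6 CPM in the IL4+Bryostatin libraries, against 74.3, 92.6 and 100.1 CPM in the IL4 libraries. The first pair rose (1.02 ± 0.16, adjusted p = 0.00144 and 1.06 ± 0.19, adjusted p = 0.00326), and Cx3cr1 fell (-0.62 ± 0.11, adjusted p = 0.00306) while the gene of its ligand Cx3cl1 rose. In this list, of 20 tested members, 6 were called higher and 2 lower, beside 9.4% and 8.52% of all genes tested. The other 12 were not called. With 12 libraries 2 were called higher. Without IL4+Bryostatin replicate 3 the number was 3. Trem2, a lipid receptor, rose by 0.57 ± 0.15, adjusted p = 0.0256 and was not called with 12 libraries (adjusted p = 0.241), without IL4+Bryostatin replicate 2 (adjusted p = 0.182) or without replicate 3 (adjusted p = 0.0925).

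Of 23 genes of disease-associated microglia tested, 16 were called higher and 0 lower (median 0.57), 10 of them with 12 libraries in the fit. Besides Spp1, Gpnmb, a membrane glycoprotein of phagocytes, was at 359.9, 336 and 415 CPM in the IL4+Bryostatin libraries, against 103, 137 and 163 CPM in the IL4 libraries. Clec7a (dectin-1, a receptor for beta-glucan) was at 408, 399 and 447 CPM in the IL4+Bryostatin libraries, against 156, 192 and 245 CPM in the IL4 libraries. Lpl (lipoprotein lipase) was at 396, 389 and 416 CPM in the IL4+Bryostatin libraries, against 203, 217 and 243 CPM in the IL4 libraries. Each of these did not overlap between groups, with log2 fold changes of 1.44 ± 0.16, adjusted p = 0.00055, 1.06 ± 0.14, adjusted p = 0.00106 and 0.83 ± 0.08, adjusted p = 9.4e-05. Apoe, Axl and Itgax were among the 7 genes of the list not called, at -0.23 ± 0.14, -0.04 ± 0.08 and 0.10 ± 0.25, and are named after their values were seen.

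Lysosomal and phagocytic genes also rose, in 16 of 26 with 0 lower (9 of them with 12 libraries in the fit). Ctsc, a protease that activates other proteases (cathepsin C), was at 394, 412 and 454 CPM in the IL4+Bryostatin libraries, against 199, 222 and 263 CPM in the IL4 libraries (0.85 ± 0.10, adjusted p = 0.000307). Gusb (beta-glucuronidase) was at 239, 276 and 286 CPM in the IL4+Bryostatin libraries, against 144, 158 and 180.3 CPM in the IL4 libraries (0.71 ± 0.10, adjusted p = 0.000721). The median of the list was 0.43, and the structural lysosomal genes Lamp1 and Lamp2 were not called (-0.01 ± 0.07 and -0.13 ± 0.07, named after their values were seen).

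Genes that identify astrocytes were mostly lower with bryostatin. Aqp4, the water channel of astrocyte end-feet, was at 466, 395 and 481 CPM in the IL4+Bryostatin libraries, against 1000.2, 952 and 917 CPM in the IL4 libraries. Gja1 (connexin 43), which couples astrocytes, was at 192, 185 and 210.4 CPM in the IL4+Bryostatin libraries, against 357, 391 and 349.6 CPM in the IL4 libraries. Slc1a2 (the glutamate transporter GLT-1) was at 107, 88.7 and 107 CPM in the IL4+Bryostatin libraries, against 190.0, 195 and 185 CPM in the IL4 libraries. All 3 lay below every IL4 library, with log2 fold changes of -1.12 ± 0.09, adjusted p = 2.72e-05 for Aqp4, -0.93 ± 0.08, adjusted p = 5.3e-05 for Gja1 and -0.93 ± 0.08, adjusted p = 6.62e-05 for Slc1a2. The intermediate filament gene Gfap was at 5419, 6497 and 5909.8 CPM in the IL4+Bryostatin libraries, against 7643, 8409 and 8034 CPM in the IL4 libraries. Its fall (-0.46 ± 0.08, adjusted p = 0.00321) was smaller and was not called with 12 libraries in the fit (adjusted p = 0.177). Aldh1l1, a folate enzyme used as a marker of astrocytes, went against the others at 378, 439.8 and 418 CPM in the IL4+Bryostatin libraries, against 241, 254 and 253 CPM in the IL4 libraries (0.70 ± 0.08, adjusted p = 0.000175).

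In the astrocyte identity list, of 23 tested members, 1 was called higher, 15 were called lower and 7 were not called, with a median of -0.46 and 9 called lower with 12 libraries. The summed level of the list was 12978, 14195 and 13918 CPM in the IL4+Bryostatin libraries, against 17636, 18587 and 17728 CPM in the IL4 libraries. Among genes of reactive astrocytes, of 32 tested members, 9 were called higher and 3 lower, beside 9.4% and 8.52% of all genes tested. The other 20 were not called. Tm4sf1 and B3gnt5, a tetraspanin-like membrane protein and a glycolipid-synthesis enzyme, rose by 0.68 ± 0.08, adjusted p = 0.000391 and 0.74 ± 0.10, adjusted p = 0.000672. Of this list, 3 were called higher with 12 libraries in the fit.

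The largest falls named by size were in genes of varied function. Myoc (myocilin) was at 1.17, 2.02 and 1.01 CPM in the IL4+Bryostatin libraries, against 11.1, 10.2 and 6.42 CPM in the IL4 libraries. Enpp2 (autotaxin, which makes lysophosphatidic acid) was at 2.41, 2.36 and 4.47 CPM in the IL4+Bryostatin libraries, against 15.2, 13.8 and 11.6 CPM in the IL4 libraries. The alpha-2A adrenergic receptor gene Adra2a was at 11.1, 13.2 and 12.3 CPM in the IL4+Bryostatin libraries, against 36.8, 42.2 and 35.1 CPM in the IL4 libraries. None of the 3 overlapped between groups, and the log2 fold changes were -2.78 ± 0.28, adjusted p = 0.000138, -2.18 ± 0.23, adjusted p = 0.000164 and -1.67 ± 0.11, adjusted p = 7.36e-06. Mbp, the basic protein of myelin, was at 9.05, 8.49 and 10.2 CPM in the IL4+Bryostatin libraries, against 5.4, 6.47 and 5.85 CPM in the IL4 libraries. The call of Mbp (0.62 ± 0.14, adjusted p = 0.011) was lost with 12 libraries (adjusted p = 0.376) and without IL4+Bryostatin replicate 3 (adjusted p = 0.0585), and its level was low in all 6 libraries.

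Among oligodendrocyte precursor genes, of 12 tested members, 2 were called higher and 4 lower, beside 9.4% and 8.52% of all genes tested. The other 6 were not called. The lineage factor Sox10 was low in all 6 libraries, as given above, and which cells carried these genes was not measured. C1ql1, a secreted synapse-organising protein, fell to 32.1, 40.3 and 34.1 CPM in the IL4+Bryostatin libraries, against 83.6, 88.9 and 70.9 CPM in the IL4 libraries (-1.22 ± 0.11, adjusted p = 5.96e-05). Pdgfra, the receptor for the platelet-derived growth factor on which these precursors grow, had 7.36, 8.94 and 12.4 CPM in the IL4+Bryostatin libraries, against 4.05, 6.73 and 5.68 CPM in the IL4 libraries. Its call (0.77 ± 0.23, adjusted p = 0.0404) was lost with 12 libraries (adjusted p = 0.759), without IL4+Bryostatin replicates 2 (adjusted p = 0.079) or 3 (adjusted p = 0.15), and without IL4 replicates 1 (adjusted p = 0.118) or 3 (adjusted p = 0.0921). Of 9 oligodendrocyte and myelin genes tested, 1 was called higher and 2 lower, again beside 9.4% and 8.52% of all genes tested.

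Genes of ependymal cells and motile cilia pointed down: 8 of 13 were called lower and 0 higher, with a median of -0.84. Foxj1, the master factor of motile cilia, was at 125, 146 and 136 CPM in the IL4+Bryostatin libraries, against 183, 216 and 191 CPM in the IL4 libraries (-0.56 ± 0.09, adjusted p = 0.00131). With 12 libraries in the fit 0 of them were called. The number was 5 in the fit of 11 libraries without untreated replicate 1, whose ependymal sum stood apart, and without IL4 replicate 2 it was 5.

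Endothelial, mural, fibroblast and neuronal markers gave calls in both directions, except for the mural list with 0 higher, beside 9.4% higher and 8.52% lower of all genes tested. The calls numbered 2 higher and 1 lower of 9 endothelial genes, 0 and 2 of 9 mural genes, 1 and 2 of 15 fibroblast genes, and 1 and 1 of 5 neuronal genes. Leaving out 1 library gave 0 to 2 higher and 0 to 3 lower endothelial genes, 0 to 3 lower mural genes and 0 to 1 lower neuronal genes. The summed level of the fibroblast genes was 2267, 2784 and 2652 CPM in the IL4+Bryostatin libraries, against 2124, 4561 and 4127 CPM in the IL4 libraries. IL4 replicate 1 thus lay below the other 5 libraries, and without it the number of fibroblast genes called lower was 8. The part of this library's low sum in the other results was not tested.

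The enzymes of cholesterol synthesis were lower together. Hmgcs1 (HMG-CoA synthase, an early enzyme of the pathway) was at 175, 180.3 and 176 CPM in the IL4+Bryostatin libraries, against 372, 344 and 364 CPM in the IL4 libraries. Insig1, the sterol-induced retention protein of the SREBP pathway, was at 73.9, 70.6 and 70.1 CPM in the IL4+Bryostatin libraries, against 189, 159 and 163 CPM in the IL4 libraries. Neither gene overlapped between groups and the libraries of a group lay close together. Their log2 fold changes were -1.05 ± 0.07, adjusted p = 6.94e-06 for Hmgcs1 and -1.28 ± 0.08, adjusted p = 6.94e-06 for Insig1. Cyp51, which removes a methyl group from lanosterol, fell to 99.5, 108 and 98.1 CPM in the IL4+Bryostatin libraries, against 159, 152 and 162 CPM in the IL4 libraries (-0.66 ± 0.07, adjusted p = 0.000152). Of 25 genes of sterol synthesis tested, 20 were called lower and 0 higher, with a median of -0.52. With 12 libraries in the fit 8 were called.

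Ch25h makes 25-hydroxycholesterol, an oxysterol that is known to hold back processing of SREBP and to be made by macrophages. It was at 79.6, 81.6 and 78.8 CPM in the IL4+Bryostatin libraries, against 9.55, 12.6 and 9.17 CPM in the IL4 libraries. The groups lay wide apart and the spread within each was small, for a log2 fold change of 2.91 ± 0.11, adjusted p = 1.65e-07. Genes of lipid uptake and storage rose in part: of 19 tested members, 8 were called higher, 1 was called lower and 10 were not called, and 5 were called higher with 12 libraries. The scavenger receptor Cd36 was at 148, 146 and 163 CPM in the IL4+Bryostatin libraries, against 36.5, 46.7 and 68.1 CPM in the IL4 libraries (1.57 ± 0.20, adjusted p = 0.00197). Lipa, the lysosomal acid lipase that frees cholesterol from its esters, was at 265, 261 and 283 CPM in the IL4+Bryostatin libraries, against 136, 152 and 178 CPM in the IL4 libraries (0.77 ± 0.10, adjusted p = 0.000375). The cholesterol exporters Abca1 and Abcg1, named after their values were seen, were not called (-0.09 ± 0.14 and 0.19 ± 0.18).

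Enzymes that make lipid mediators from arachidonic acid rose as well. Alox15 (12/15-lipoxygenase) was at 12.1, 11.4 and 14.9 CPM in the IL4+Bryostatin libraries, against 1.83, 2.74 and 2.87 CPM in the IL4 libraries. Alox5 (5-lipoxygenase, the first enzyme of leukotriene synthesis) was at 9.2, 8.27 and 9.43 CPM in the IL4+Bryostatin libraries, against 2.84, 3.47 and 3.61 CPM in the IL4 libraries. Tbxas1 (thromboxane synthase) was at 106, 115 and 132 CPM in the IL4+Bryostatin libraries, against 42.1, 56.6 and 58.8 CPM in the IL4 libraries. In each the libraries with bryostatin lay above those without it, with log2 fold changes of 2.35 ± 0.19, adjusted p = 3.68e-05, 1.42 ± 0.16, adjusted p = 0.000186 and 1.14 ± 0.13, adjusted p = 0.000307. Pla2g4a, the phospholipase that frees arachidonic acid, rose by 0.72 ± 0.09, adjusted p = 0.000308. Of 16 genes tested in this list 11 were called higher and 1 lower, and 6 were called higher with 12 libraries. The lower one was Ptgds, prostaglandin D synthase of the brain (-0.77 ± 0.23, adjusted p = 0.0356), not called with 12 libraries (adjusted p = 0.663). It also lost its call without IL4+Bryostatin replicate 1 (adjusted p = 0.102) or 3 (adjusted p = 0.0658), or IL4 replicate 1 (adjusted p = 0.0529), 2 (adjusted p = 0.147) or 3 (adjusted p = 0.0839).

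Nearly all genes of the cell cycle were higher. Of 36 tested, 35 were called higher and 0 lower, with log2 fold changes of 0.31 to 0.98 and a median of 0.58, and 23 were called with 12 libraries in the fit. Cdk1, the kinase that drives mitosis, was at 55.8, 63 and 61.6 CPM in the IL4+Bryostatin libraries, against 35, 39.8 and 35.8 CPM in the IL4 libraries (0.68 ± 0.08, adjusted p = 0.000402). Mcm5, a subunit of the replicative helicase, was at 53.9, 56.2 and 53.2 CPM in the IL4+Bryostatin libraries, against 32.3, 36.5 and 35.8 CPM in the IL4 libraries (0.62 ± 0.08, adjusted p = 0.000466). Ccnb1 (cyclin B1) and Bub1, a kinase of the spindle checkpoint, rose by 0.70 ± 0.08, adjusted p = 0.000298 and 0.95 ± 0.12, adjusted p = 0.000515. The one member not called was Cdc45 (0.34 ± 0.14). Which cells of the cultures carried them was not measured.

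Of 25 genes of glycolysis and hypoxia 9 were called higher and 1 lower, beside 9.4% and 8.52% of all genes tested. Slc16a3 (the lactate exporter MCT4) was at 25.2, 26 and 26.7 CPM in the IL4+Bryostatin libraries, against 12.5, 13.5 and 12.6 CPM in the IL4 libraries. Slc2a1 (the glucose transporter GLUT1) was at 78.8, 82.4 and 79 CPM in the IL4+Bryostatin libraries, against 125, 128 and 129 CPM in the IL4 libraries. The exporter rose (0.99 ± 0.09, adjusted p = 9.2e-05) and the glucose transporter fell (-0.69 ± 0.07, adjusted p = 9.16e-05), and 2 members of the list were called higher with 12 libraries, where Slc16a3 was not (adjusted p = 0.0516). Targets of the antioxidant factor NRF2 split into 6 higher and 7 lower of 24, beside 9.4% and 8.52% of all genes tested. Gclc, the catalytic subunit of the enzyme that starts glutathione synthesis, was at 113, 97.3 and 103 CPM in the IL4+Bryostatin libraries, against 229.7, 197 and 192 CPM in the IL4 libraries (-1.01 ± 0.09, adjusted p = 5.66e-05). Its partner subunit Gclm (-0.49 ± 0.07, adjusted p = 0.00111) and the glutathione transferase Gstm1 (-0.60 ± 0.08, adjusted p = 0.000837) fell as well. With 12 libraries in the fit 0 targets were called higher and 3 lower. The number called higher was 3 without IL4+Bryostatin replicate 3, 2 without IL4 replicate 1 and 3 without IL4 replicate 2.

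**Figure D4:**
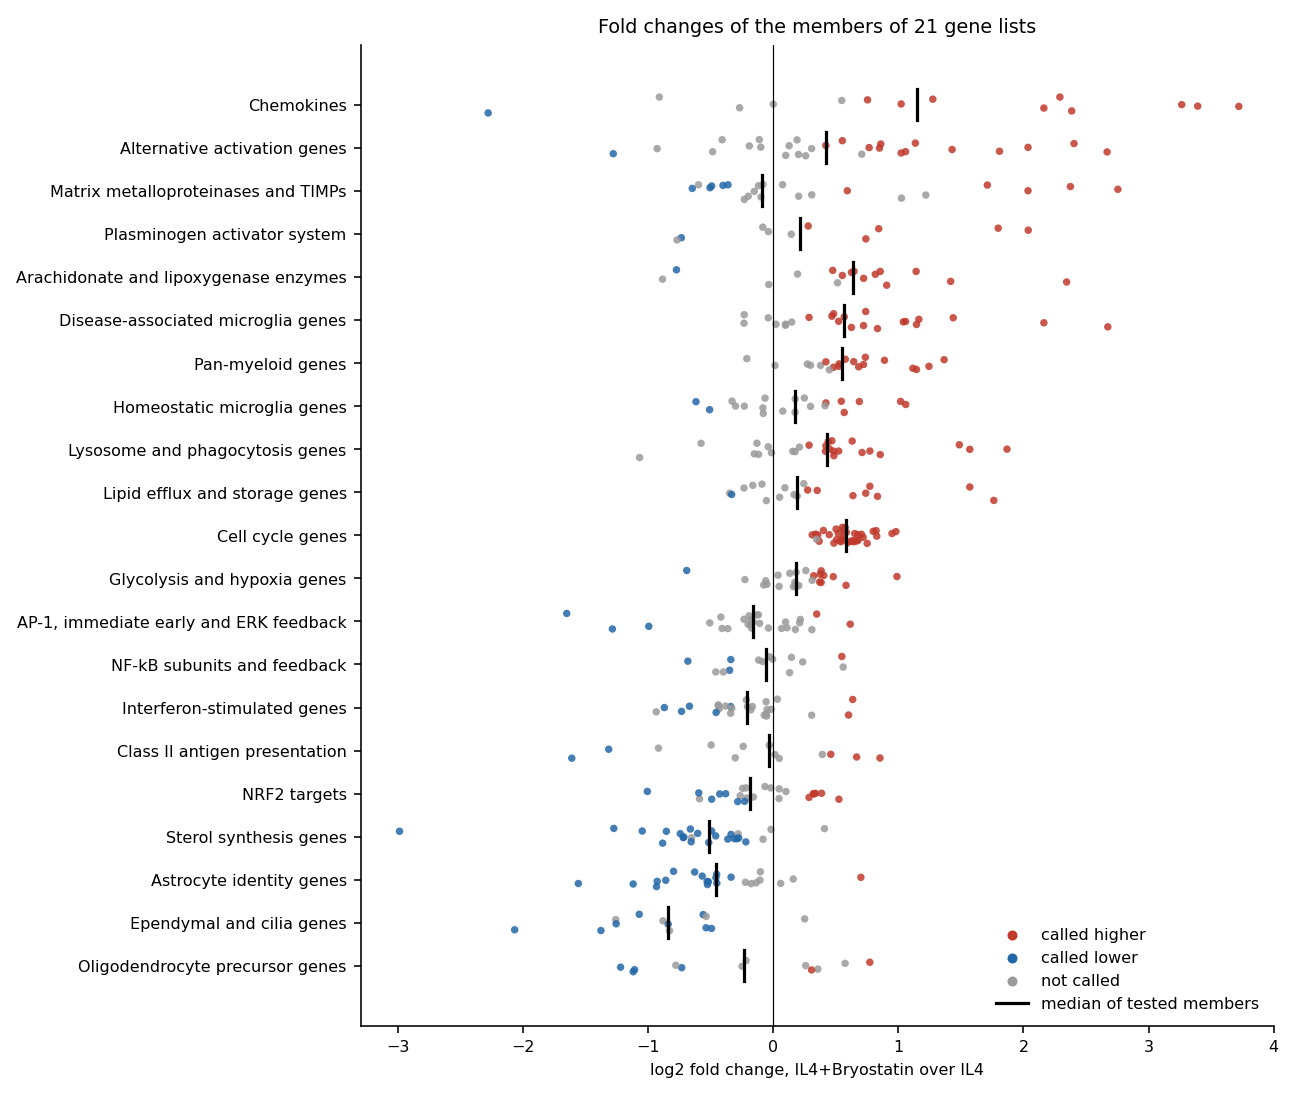
Log2 fold change (x axis, IL4+Bryostatin over IL4) of every tested member of 21 gene lists, 1 point per gene, red where called higher, blue where called lower and grey where not called, with a black bar at the median of the list. Cell cycle members lie to the right of 0 and sterol synthesis and ependymal members mostly to the left.

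The PKC genes themselves changed little. Per length and on the deposited FPKM scale, the most abundant isoforms were Prkca, at 33.1 ± 3.95 FPKM in the IL4+Bryostatin libraries, against 37.7 ± 1.78 FPKM in the IL4 libraries, and Prkcd, at 24.2 ± 1.58 FPKM in the IL4+Bryostatin libraries, against 25.8 ± 4.59 FPKM in the IL4 libraries. Neither was called (-0.21 ± 0.09, adjusted p = 0.15 and -0.11 ± 0.12, adjusted p = 0.588). Prkce, a calcium-independent isoform, was at 3.2 ± 0.312 FPKM in the IL4+Bryostatin libraries, against 4.36 ± 0.267 FPKM in the IL4 libraries. It was the 1 gene called (-0.46 ± 0.10, adjusted p = 0.00869) of 12 PKC and PKD genes tested, beside 17.9% of all genes tested. Prkce was not called with 12 libraries (adjusted p = 0.239) or without IL4 replicate 2 (adjusted p = 0.0589). These are transcript levels, and protein levels were not measured.

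Other proteins with a C1 domain gave 5 genes called higher and 0 lower of 16, beside 9.4% and 8.52% of all genes tested. Rasgrp3, a Ras activator that binds diacylglycerol, was at 27.8, 23.6 and 33.5 CPM in the IL4+Bryostatin libraries, against 14.2, 14.5 and 16.1 CPM in the IL4 libraries (0.90 ± 0.13, adjusted p = 0.000987). Dgkz, a kinase that removes diacylglycerol, was at 138, 144 and 145 CPM in the IL4+Bryostatin libraries, against 92.8, 100.4 and 106 CPM in the IL4 libraries (0.49 ± 0.07, adjusted p = 0.00116). With 12 libraries Dgkz alone was called, Rasgrp3 narrowly missing (adjusted p = 0.0526), and 3 of the 16 were called without IL4+Bryostatin replicate 3, IL4 replicate 1 or IL4 replicate 2.

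Of 27 immediate early genes, AP-1 subunits and ERK feedback genes tested after 24 h, 3 were called lower and 2 higher, beside 8.52% and 9.4% of all genes tested. Fos, a subunit of AP-1, was at 22.2, 25.8 and 22.6 CPM in the IL4+Bryostatin libraries, against 40.8, 51 and 46.3 CPM in the IL4 libraries. Egr1, a zinc finger factor induced by ERK signalling, was at 16.6, 21.5 and 18.1 CPM in the IL4+Bryostatin libraries, against 35.6, 50.2 and 48.4 CPM in the IL4 libraries. Both lay below every IL4 library, at -1.0 ± 0.10, adjusted p = 0.000133 for Fos and -1.29 ± 0.14, adjusted p = 0.00026 for Egr1. Egr3 also fell (-1.65 ± 0.31, adjusted p = 0.00408), while the ERK phosphatase Dusp6 rose by 0.35 ± 0.07, adjusted p = 0.00554 and was not called with 12 libraries (adjusted p = 0.403). Ier3, another immediate early gene, rose by 0.61 ± 0.13, adjusted p = 0.00657 and was likewise not called with 12 libraries (adjusted p = 0.056). The number called higher was 4 without IL4+Bryostatin replicate 2. The number called lower was 7 without IL4+Bryostatin replicate 2 and 5 without IL4 replicate 1. Of 14 genes for NF-kB subunits and their feedback inhibitors 1 was called higher and 3 lower, beside the same shares of all genes. With 12 libraries in the fit 0 were called in either direction. Leaving out 1 library gave 0 to 1 higher and 0 to 4 lower.

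Of 13 genes of class II antigen presentation tested, 3 were called higher and 2 lower, and of 18 class I genes 0 were called higher and 4 lower, beside 9.4% and 8.52% of all genes tested. Cd74, the invariant chain of MHC class II, was at 19.5, 19.7 and 19.3 CPM in the IL4+Bryostatin libraries, against 37.6, 51.1 and 54.5 CPM in the IL4 libraries. It fell clear of every IL4 library (-1.32 ± 0.13, adjusted p = 9.6e-05). H2-Ab1, a class II chain, was near the limit of detection and its groups overlapped, at 0.778, 0.337 and 0.373 CPM in the IL4+Bryostatin libraries, against 0.771, 1.76 and 2.29 CPM in the IL4 libraries. The co-stimulatory gene Cd86 was among those not called (-0.24 ± 0.27, adjusted p = 0.595). In the class II list 1 gene was called higher without IL4+Bryostatin replicate 3, IL4 replicate 1 or IL4 replicate 2, and 1 was called lower without IL4+Bryostatin replicate 2 or 3 or IL4 replicate 2 or 3. With 12 libraries 0 class II genes were called higher and 1 lower, and 0 class I genes were called. Leaving out 1 library gave 0 to 3 higher and 0 to 4 lower class I genes, with 0 lower without IL4 replicate 2.

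Of 26 interferon-stimulated genes 2 were called higher and 5 lower, against 9.4% and 8.52% of all genes. Ifit3b was at 9.62, 10.4 and 10 CPM in the IL4+Bryostatin libraries, against 16, 20.4 and 17.5 CPM in the IL4 libraries (-0.87 ± 0.12, adjusted p = 0.000718). It is a near-identical copy of Ifit3, so its share of the reads is uncertain, and it was not called with 12 libraries (adjusted p = 0.113), where 0 genes of the list were called. The number called lower was 2 without IL4+Bryostatin replicate 3 and 1 without IL4 replicate 2.

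The same dose of bryostatin had also been given without IL-4, which allowed its effect with and without the cytokine to be set side by side. Spp1 was at 2136, 2516 and 2113 CPM in the Bryostatin libraries, against 318, 389 and 434 CPM in the untreated libraries of experiment 2. Ccl2 was at 31.9, 32.8 and 23.5 CPM in the Bryostatin libraries, against 2.48, 1.57 and 2.39 CPM in the untreated libraries of experiment 2. Mmp3 was at 41.1, 60.3 and 40.4 CPM in the Bryostatin libraries, against 8.9, 6.36 and 8.54 CPM in the untreated libraries of experiment 2. These 3 genes were higher in every bryostatin library, with log2 fold changes of 2.57 ± 0.18, adjusted p = 0.00973, 3.77 ± 0.25, adjusted p = 0.00973 and 2.58 ± 0.23, adjusted p = 0.0258. With IL-4 the values were 2.67 ± 0.17, 3.27 ± 0.23 and 2.76 ± 0.15. Of 15007 genes tested in this comparison, 9 (0.06%) were called and 0 lower, and 1591 had an unadjusted p below 0.05. The 9 were Spp1, Ccl2, Ccl12, Ccl6, Ccl9, Ccr1, Mmp3, Cd300lf and Fcgr2b, some of them named here after their values were seen, and each was also called higher with IL-4. The number rested on untreated replicate 1 and bryostatin replicate 2, the libraries that stood apart. Without the first, 17 genes were called. A fit without both, chosen after the data were seen, had 1 library fewer in each group. It called 2243 of 15033 genes tested, 1292 higher (8.59%) and 951 lower (6.33%). Of these, 586 were shared with the genes called higher with IL-4 (41.3% of the IL-4 list, 45.4% of the other) and 564 with those called lower (43.9% and 59.3%), with 0 genes in opposite directions.

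The difference between the effects of bryostatin with and without IL-4 was tested as an interaction over the 12 libraries of experiment 2. Of 15604 genes 0 were called by edgeR's quasi-likelihood test, with a smallest adjusted p of 0.859 and 327 genes at an unadjusted p below 0.05. DESeq2 called 4, namely Arg1, Gda, Ccl4 and Cd74, of which Gda is named after its value was seen. Arg1 was at 9.78, 8.32 and 6.22 CPM in the Bryostatin libraries, against 0.738, 0.169 and 0.171 CPM in the untreated libraries of experiment 2. Its log2 fold change without IL-4 was 4.46 ± 0.55, adjusted p = 0.0707, and its level was far higher with both agents. Without untreated replicate 1 the fold change of Arg1 was 5.52 ± 0.40, adjusted p = 0.019. Untreated replicates 2 and 3 lay at about 3 counts, so the size of this change and of the interaction is uncertain. The interaction for Arg1 was -2.61 ± 0.45, adjusted p = 0.859. For Ch25h, at 36.6, 32.8 and 30.7 CPM in the Bryostatin libraries, against 7.17, 15.7 and 11.7 CPM in the untreated libraries of experiment 2, it was 1.40 ± 0.32, adjusted p = 0.941. With 10 libraries, leaving out both that stood apart, Ch25h was the 1 gene called (1.64 ± 0.20, adjusted p = 0.0151), its increase being larger with IL-4. Without untreated replicate 1 alone, the smallest adjusted p was 0.0527, for Arg1 and Ch25h. By chance about 780 genes would lie at an unadjusted p below 0.05 in the fit of 12 libraries, more than the 327 seen. With 10 libraries 1995 genes did, against 788 by chance. Without bryostatin replicate 2 alone 1616 did, against 797. For the remaining genes no difference in effect was called in these fits, and whether their effects differ cannot be settled with these libraries.

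Bryostatin had also been added to LPS and to LPS with IFN-gamma, in libraries of experiment 1 that share no control with those above. With LPS, 3354 of 15245 genes (22%) were called, 1637 higher (10.7%) and 1717 lower (11.3%). Of these, 453 were called higher both with LPS and with IL-4 (31.9% of the IL-4 list, 27.7% of the LPS list) and 479 lower in both (37.3% and 27.9%), while 136 genes called higher with IL-4 were called lower with LPS and 52 went the reverse way. With LPS and IFN-gamma 558 of 14811 (3.77%) were called, 299 higher (2.02%) and 259 lower (1.75%). Of these, 104 were higher both there and with IL-4 (7.33% of the IL-4 list, 34.8% of the other) and 117 lower in both (9.11% and 45.2%), with 15 and 8 in opposite directions. In all 3 settings 94 genes were called higher and 108 lower.

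Among the genes that moved one way in all 3 settings was Spp1, at 1333 ± 123 CPM with LPS and bryostatin, against 338 ± 24.4 CPM with LPS (1.99 ± 0.07, adjusted p = 1.14e-13, SD over n = 3 each). It was at 316 ± 27.3 CPM with LPS, IFN-gamma and bryostatin, against 105 ± 10.9 CPM with LPS and IFN-gamma (1.59 ± 0.10, adjusted p = 2.28e-05). Its increase was thus seen beside each stimulus, and its level without bryostatin was lower with LPS and IFN-gamma than with LPS. Mmp3 rose by 0.58 ± 0.06, adjusted p = 6.1e-07 with LPS and by 0.85 ± 0.10, adjusted p = 0.00113 with LPS and IFN-gamma, less than with IL-4 on the log2 scale. Plaur rose by 0.82 ± 0.11, adjusted p = 7.22e-06 and 0.83 ± 0.11, adjusted p = 0.00161. Among genes that fell, Myoc changed by -2.79 ± 0.25, adjusted p = 4.45e-08 and -2.08 ± 0.24, adjusted p = 0.000761, and Aqp4 by -0.78 ± 0.06, adjusted p = 7.28e-09 and -1.26 ± 0.11, adjusted p = 0.000148. Cx3cr1 fell in each setting too (-1.38 ± 0.09, adjusted p = 5.44e-10 and -1.22 ± 0.13, adjusted p = 0.00058).

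Other changes seen with IL-4 were not called in either inflamed setting. Ccl2 was at 659.7 ± 53.7 CPM with LPS and bryostatin, against 749.6 ± 65.5 CPM with LPS (-0.17 ± 0.07, adjusted p = 0.0807). Ch25h (0.03 ± 0.06, adjusted p = 0.769 with LPS, 0.11 ± 0.11, adjusted p = 0.715 with LPS and IFN-gamma), Itgam (-0.13 ± 0.07, adjusted p = 0.233 and -0.04 ± 0.15, adjusted p = 0.955) and Insig1 (0.01 ± 0.06, adjusted p = 0.949 and 0.09 ± 0.09, adjusted p = 0.731) were also not called. Egr1 and Lif, a cytokine of the interleukin 6 family, differed in direction. Egr1, lower with IL-4, rose by 0.78 ± 0.13, adjusted p = 0.000679 with LPS and was lower with LPS and IFN-gamma (-0.98 ± 0.15, adjusted p = 0.00445). Lif fell with IL-4 (-0.57 ± 0.14, adjusted p = 0.0167), a call lost with 12 libraries (adjusted p = 0.43), without IL4+Bryostatin replicate 3 (adjusted p = 0.0675) or without IL4 replicate 2 (adjusted p = 0.0915), and rose with LPS (0.97 ± 0.12, adjusted p = 2.2e-06) and with LPS and IFN-gamma (0.79 ± 0.10, adjusted p = 0.0015). The experiments also differ in their untreated groups and libraries, and the difference between the settings was not tested.

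**Figure D5:**
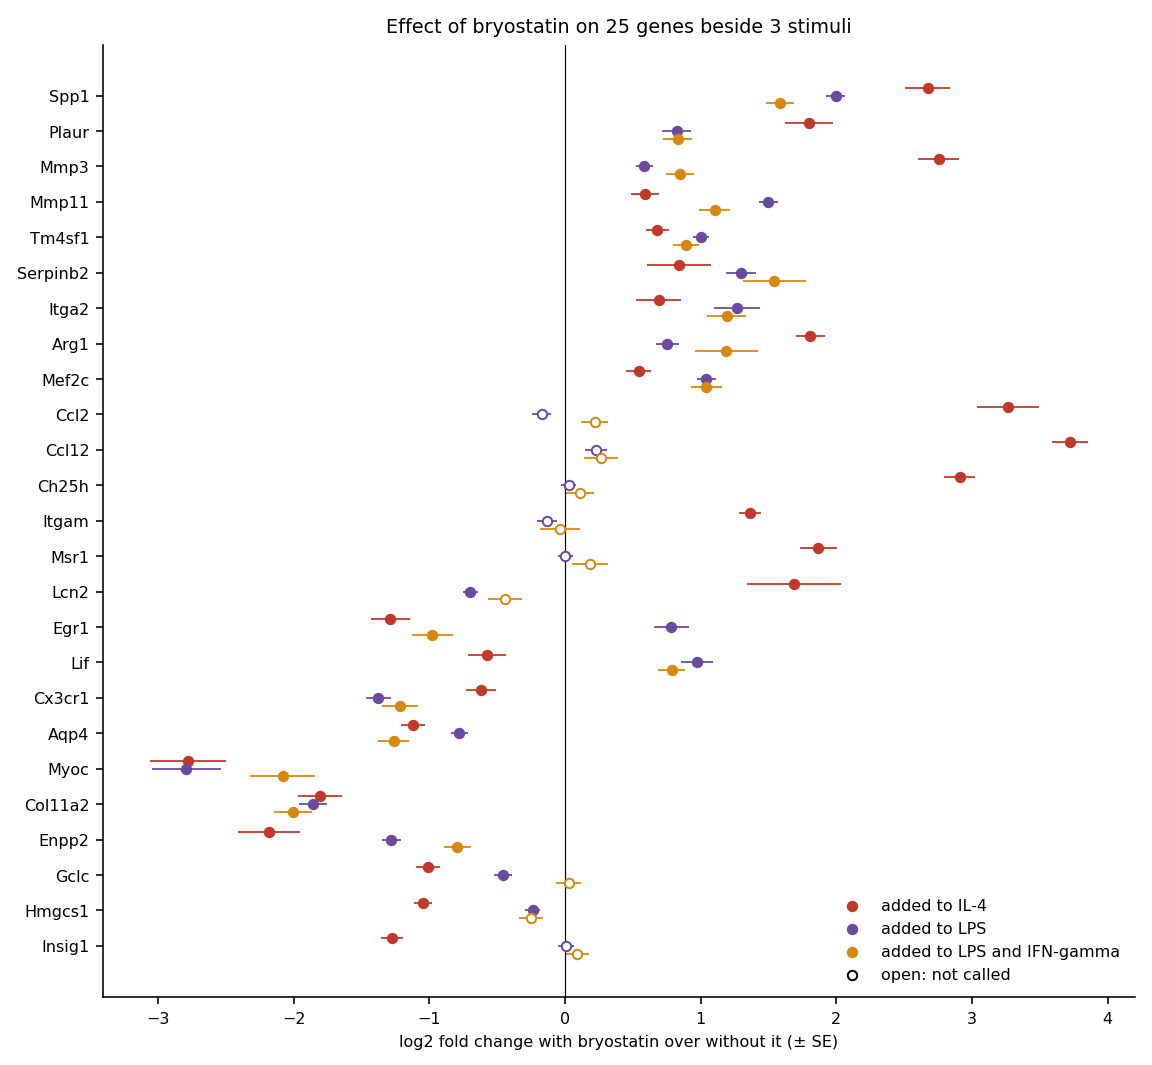
Log2 fold change with bryostatin over without it (x axis, bars are SE) for 25 named genes when it was added to IL-4 (red), to LPS (purple) or to LPS and IFN-gamma (orange), filled where called and open where not. Spp1, Mmp3, Plaur and Mmp11 lie to the right and Myoc, Col11a2, Cx3cr1 and Aqp4 to the left in all 3 settings, and Ccl2, Ccl12, Ch25h, Itgam, Msr1 and Insig1 are filled for IL-4 and open beside LPS and beside LPS and IFN-gamma.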

How the data were processed

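RNA was sequenced from 27 libraries, 3 in each of 9 groups taken from the labels. Libraries captured polyadenylated RNA and kept no strand, per the labels. The submitters' processing notes name fastp, STAR and featureCounts with the build mm10. Their versions are not given in the sources used here. Counts, as deposited by the authors, are raw read counts per gene. The deposited FPKM values were scaled by the authors to gene length (deposited in bases) and depth, and served only to compare levels between genes.

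Counts were tested with edgeR 4.0.16 in R 4.3.3 (filterByExpr by group, TMM, robust quasi-likelihood test, Benjamini-Hochberg adjustment over all genes tested, called below 0.05). The main comparison fitted its own 6 libraries. This was chosen because earlier results of these data had shown an untreated library of experiment 2 that stood apart from its group. The fit was tested on simulated data. CPM values use TMM factors over the 12 libraries of experiment 2, and the levels in experiment 1 use factors of their own. Errors beside fold changes are standard errors, and floors of 3 counts cover counting error only.

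Genes were named by rule: 12 changes each way by size among called protein-coding genes averaging 5 CPM or more without overlap, up to 5 called members of each of 37 gene lists with the smallest p, and a fixed set called or not. The comparison, the members and the lists were chosen with earlier results of these data known, and lists share genes. Alternatives were DESeq2 1.42.0, its size factors in edgeR, no filter, a fit with more libraries, blocking by replicate number, and omitting 1 library at a time. An additional fit of 11 libraries, and fits without both libraries that stood apart, were chosen after seeing the data. Some genes that the rule names are not reported here.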

Additional observations from a re-analysis of the deposited data

How the results depend on the processing

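The number of genes called in IL4+Bryostatin against IL4 glia was 2703, and it was 2680 with DESeq2's size factors, 2735 with DESeq2 and 3242 with no filter on low counts. Fits that took in libraries of other groups gave fewer calls: 644 with 12 libraries (422 higher, 222 lower, 61 of these over 2-fold), 1094 with 9 libraries and no untreated group (663 higher, 431 lower, 111 of these over 2-fold), and 1355 with 11 libraries, without untreated replicate 1 (807 higher, 548 lower). Leaving out 1 library gave 1438 to 2815 calls, 809 to 1547 higher, 579 to 1316 lower, 162 to 249 over 2-fold higher and 112 to 211 over 2-fold lower. The cause was not tested. Of 166 named genes that were called, 87 were called in every setting, 89 with 12 libraries and 123 in every fit that left out 1 library. Leaving out 1 library gave log2 fold changes from -0.0221 (without IL4 replicate 1) to 0.215 for Igf1 and from -0.159 (without IL4 replicate 1) to 0.445 for Tnf, neither of which was called in any of these fits. Igf1 was at -0.000599 without IL4+Bryostatin replicate 3. For the interaction with IL-4, DESeq2 called 4 genes and 10 libraries gave 1, against 0. Bryostatin without IL-4 gave 9 calls, 17 without untreated replicate 1 and 2243 without that library and bryostatin replicate 2. Whether replicate numbers pair the samples cannot be settled with 3 libraries per group. Same-numbered libraries correlated in their deviations at 0.245, 0.0576 and 0.108, and differently numbered ones at -0.166 to 0.0756. IL4+Bryostatin replicate 2 correlated best with IL4 replicate 3 (0.0636). A fit with the replicate block gave 2930 calls, 2597 of them shared. At this depth, genes below about 3 counts, 0.105 to 0.173 CPM, could not be compared.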

Other observations

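Integrins were higher in part. Itgb3, the beta chain of the vitronectin receptor that also binds osteopontin, was at 37.7, 41.3 and 45 CPM in the IL4+Bryostatin libraries, against 8.15, 14.2 and 14 CPM in the IL4 libraries, a log2 fold change of 1.75 ± 0.18, adjusted p = 0.000283. Itga7, a laminin receptor chain, was at 198, 188 and 181 CPM in the IL4+Bryostatin libraries, against 114, 113 and 128 CPM in the IL4 libraries (0.65 ± 0.08, adjusted p = 0.00026) and was not called with 12 libraries in the fit (adjusted p = 0.137). Of 19 integrin genes tested 6 were called higher and 1 lower, beside 9.4% and 8.52% of all genes, and 2 were called higher with 12 libraries. Complement genes split. The anaphylatoxin receptors C5ar1 and C3ar1 rose, C5ar1 to 62.9, 71 and 64.8 CPM in the IL4+Bryostatin libraries, against 21.4, 29.2 and 28.6 CPM in the IL4 libraries (1.30 ± 0.11, adjusted p = 5.86e-05) and C3ar1 to 133, 128 and 161 CPM in the IL4+Bryostatin libraries, against 60.5, 77.4 and 84.5 CPM in the IL4 libraries (0.90 ± 0.13, adjusted p = 0.0013). The proteases of the first component were lower, C1s1 at 16.4, 17 and 18.2 CPM in the IL4+Bryostatin libraries, against 28.2, 29.6 and 26.8 CPM in the IL4 libraries (-0.74 ± 0.09, adjusted p = 0.000419) and C1ra with a log2 fold change of -0.52 ± 0.09, adjusted p = 0.00254. Of 17 complement genes 3 were called higher and 3 lower, beside 9.4% and 8.52% of all genes tested, and 11 were not called. The number called higher was 6 without IL4+Bryostatin replicate 1.

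Among growth factors, of 25 tested members, 3 were called higher and 5 lower, beside 9.4% and 8.52% of all genes tested. The other 17 were not called. With 12 libraries 0 were called higher and 1 lower. The number called lower was 1 without IL4+Bryostatin replicate 3, 2 without IL4 replicate 1 and 3 without IL4 replicate 2 or 3, and the number called higher was 1 without IL4 replicate 1. Tgfb3 fell to 88.2, 84.8 and 83.4 CPM in the IL4+Bryostatin libraries, against 122, 123 and 108 CPM in the IL4 libraries (-0.48 ± 0.07, adjusted p = 0.00139). Tgfb1 was at 54.9, 75.4 and 68.8 CPM in the IL4+Bryostatin libraries, against 29.8, 41.9 and 43.3 CPM in the IL4 libraries, and its call (0.77 ± 0.15, adjusted p = 0.00866) was lost with 12 libraries (adjusted p = 0.0628) and without IL4+Bryostatin replicate 2 (adjusted p = 0.0738). Of 23 collagens and matrix proteins 1 was called higher, Spp1, and 2 lower, beside 9.4% and 8.52% of all genes tested. Sparc, a matrix glycoprotein of glia, fell to 3529.7, 3818 and 3251 CPM in the IL4+Bryostatin libraries, against 4959, 5067 and 4803 CPM in the IL4 libraries (-0.51 ± 0.08, adjusted p = 0.00119). The number of matrix genes called lower rested on 1 library, being 15 without IL4 replicate 1, the library with the lowest sum of fibroblast genes among the IL4 libraries.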
